A study of Mus musculus with 3 samples.

Results

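Cntn6, Nxph1, Gfra2, Npnt, Anxa1, Cntnap2, Pde10a, Camk1d and Ccnb1ip1 are 9 of the 32285 genes counted in single cells of the embryonic mouse palate. They were picked because their level in mesenchymal cells was higher on embryonic day E15.5 than on E13.5 or E14.5, so that difference selected them and is given below as a description. Which other cell types carried them, how their RNA was spread over single cells and whether cells held several of them together were not used to choose them. Per the labels, palatal shelves of wild-type C57BL/6J embryos were collected on 3 days (E13.5, then E14.5, then E15.5), the tissue of 3 embryos was pooled for each stage, digested with TrypLE and fixed in methanol, and 1 droplet-based library was made per stage. No treatment, transgene or mutation separated the groups. Values given for the 3 stages follow that order. Replicates are lacking, as each stage is 1 library, so no p-value can be given, and a stage cannot be told apart from its library. All intervals are 95% intervals for counting error alone.

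The secondary palate forms from a pair of shelves whose core is mesenchyme, much of it derived from the cranial neural crest, under a thin epithelium. The shelves grow downward, lift above the tongue, meet and fuse, and bone then forms in their anterior mesenchyme. Cell adhesion molecules, extracellular matrix ligands and growth factor receptors shape this mesenchyme, and several families among them were first studied at synapses and along axons.

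The genes have different roles. Cntn6 encodes a contactin, an immunoglobulin-type adhesion molecule anchored in the membrane by a lipid, and Cntnap2 encodes a contactin-associated protein of the neurexin superfamily. Nxph1 encodes neurexophilin 1, a secreted ligand of alpha-neurexins. Npnt encodes nephronectin, a matrix ligand of the integrin built from Itga8 and Itgb1. Gfra2 encodes the lipid-anchored co-receptor that binds neurturin and signals with Ret or Ncam1. Anxa1 encodes annexin A1, a calcium-dependent phospholipid-binding protein that also acts outside cells through formyl peptide receptors. Pde10a encodes a phosphodiesterase that hydrolyses cAMP and cGMP. Camk1d encodes a calcium/calmodulin-dependent protein kinase. Ccnb1ip1 encodes an E3 ubiquitin ligase needed for crossover formation in meiosis.

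On GRCm38, the build called mm10 in the submitters' processing notes, all 9 are protein-coding genes in GENCODE vM21. Cntn6 spans chr6:104492790-104863406 on the plus strand, Nxph1 chr6:8948431-9249032 (plus), Cntnap2 chr6:45059357-47304213 (plus), Gfra2 chr14:70890120-70979838 (plus) and Pde10a chr17:8525372-8986648 (plus). Npnt spans chr3:132881745-132950291 on the minus strand, Anxa1 chr19:20373428-20390944 (minus), Camk1d chr2:5293457-5714515 (minus) and Ccnb1ip1 chr14:50789248-50807732 (minus). For Ccnb1ip1 alone among the 9, an annotated exon overlapped an exon of another gene. That gene is Rpph1, the RNA component of ribonuclease P, at chr14:50807449-50807767 on the same strand. Rpph1 is not a row of the count tables used here, so reads from the shared stretch could have been assigned to Ccnb1ip1.

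Promoter sequence is shown for Camk1d, Ccnb1ip1, Npnt and Cntnap2, the genes with a RefSeq window that holds no annotated UTR and whose start lies at most 12004 bases from the annotated 5′ end. The 250 bases before their RefSeq transcription starts (GRCm38.p6) are shown 5′ to 3′, with GC boxes (GGGCGG or CCGCCC, which is the same motif read on the other strand) in capitals. The windows are chr2:5714763-5715012 for Camk1d, chr14:50795729-50795978 for Ccnb1ip1, chr3:132950292-132950541 for Npnt and chr6:45059811-45060060 for Cntnap2, the last on the plus strand and the others on the minus strand.
Camk1d: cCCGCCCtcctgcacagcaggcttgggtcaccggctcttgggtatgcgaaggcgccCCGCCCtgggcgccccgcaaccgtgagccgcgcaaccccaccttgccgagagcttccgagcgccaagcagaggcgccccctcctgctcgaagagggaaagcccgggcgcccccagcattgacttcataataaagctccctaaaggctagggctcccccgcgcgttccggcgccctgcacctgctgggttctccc
Ccnb1ip1: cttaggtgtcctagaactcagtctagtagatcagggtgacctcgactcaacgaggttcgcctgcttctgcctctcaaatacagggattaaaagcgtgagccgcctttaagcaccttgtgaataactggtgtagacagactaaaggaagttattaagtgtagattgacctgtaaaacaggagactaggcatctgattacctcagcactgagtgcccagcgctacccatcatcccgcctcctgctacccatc
Npnt: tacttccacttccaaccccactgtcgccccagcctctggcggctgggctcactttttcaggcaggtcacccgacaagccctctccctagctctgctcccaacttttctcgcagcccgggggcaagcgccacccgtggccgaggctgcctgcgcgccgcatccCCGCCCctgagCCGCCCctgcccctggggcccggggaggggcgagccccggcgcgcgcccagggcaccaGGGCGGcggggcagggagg
Cntnap2: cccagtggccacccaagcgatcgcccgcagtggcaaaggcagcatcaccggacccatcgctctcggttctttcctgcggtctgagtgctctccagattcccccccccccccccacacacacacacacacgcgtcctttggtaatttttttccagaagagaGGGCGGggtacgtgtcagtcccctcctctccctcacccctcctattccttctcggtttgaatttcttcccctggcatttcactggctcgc
Npnt had 3 GC boxes, Camk1d 2, Cntnap2 1 and Ccnb1ip1 0, and 32.7% of all 32851 RefSeq promoter windows of this length held at least 1. The windows held 22 CpG dinucleotides for Camk1d, 21 for Npnt, 13 for Cntnap2 and 7 for Ccnb1ip1, beside a median of 6 over all windows. The sequence TATAAA, searched on both strands, was in none of the 4 windows and in 12.4% of all. The Ccnb1ip1 start used here lies 12004 bases inside the annotated gene, away from Rpph1, and the Cntnap2 start 704 bases inside its gene. Both of these windows thus lie within the annotated bounds of their genes. RefSeq windows were found for 8 of the 9 genes, all but Gfra2. The windows of Cntn6, Nxph1 and Anxa1 hold annotated UTR bases, and those of Pde10a lie far inside the gene or hold such bases, so they are not printed.

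The 3 libraries held 4236, 2079 and 3113 cell barcodes with a median of 1735, 1614 and 1699 unique molecular identifiers (UMIs, the count of captured RNA molecules). After filtering, 3567, 1745 and 2574 cells were kept. A cell was assigned to a class from 12 marker genes per class, none of them among the 9 genes. The lineage here means the sum of 3 classes (mesenchymal-like, osteogenic-like, chondrogenic-like) and numbered 468, 1184 and 1734 cells. The E13.5 library stood apart: lineage cells were 13.1% of its kept cells, against 67.9% and 67.4% later, and neuronal-like cells were 49.8%, against 6.19% and 6.37%. The 12 mesenchymal markers summed to 3417, 9995 and 11792 CPM (the gene's UMIs divided by all UMIs of the summed cells and scaled to a common total) in the lineage of the 3 stages, and the 12 chondrogenic markers to 1929, 1619 and 535 CPM, so the E13.5 lineage was lowest in the former and highest in the latter. The 12 neuronal markers were all detected in the lineage at each stage, summing to 465, 372 and 270 CPM. Where classes are ranked, those under 30 cells are left out unless named. The libraries shared between 1 and 3 barcodes pairwise. At least 1 UMI of 4 Y-linked genes was found in 395 lineage cells of the E14.5 library and in 0 of the others. The E14.5 library thus differed from the others in Y-linked RNA as well as in stage, and these cannot be told apart.

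In the lineage, 7 of the 9 genes were above their E13.5 level by 2-fold or more at E14.5, beside 8.27% of the 11509 genes compared, and 3 were above their E14.5 level by as much at E15.5, beside 1.07%. From E13.5 to E15.5 all 9 passed 2-fold, beside 9.67%, with Camk1d on the mark at a log2 ratio of 1.003. Because this is the contrast the genes were chosen on, nothing is read from these counts. The same holds for the medians and ranks given below in this paragraph, which restate the choice. In timing, 6 genes passed 2-fold by E14.5 and differed by less than that afterwards, Pde10a passed 2-fold at both steps, and Cntnap2 and Camk1d did so only between E14.5 and E15.5. For Cntnap2 the second step was a log2 ratio of 0.20 in place of 2.20 without 8 of its cells. For Cntn6, Nxph1, Npnt and Pde10a the timing differed when only 3 clusters of the lineage entered, with their mix held fixed, as given with the clusters. The median log2 ratio of the 9 genes was 2.45 for the first interval and 0.44 for the second, beside -0.0044 and -0.0085 over all genes compared. Among the 2522 genes reaching 100 CPM in this contrast, Anxa1, Ccnb1ip1, Gfra2, Pde10a and Cntn6 held ranks 1 to 5 by the E15.5 to E13.5 ratio, and Dnajc6 (log2 3.08) and Ibsp (3.07) stood just below Cntn6 (3.26). Between E14.5 and E15.5, Pde10a ranked 6 with a log2 ratio of 1.04, and Ier2 stood next at 0.99.

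**Figure D1:**
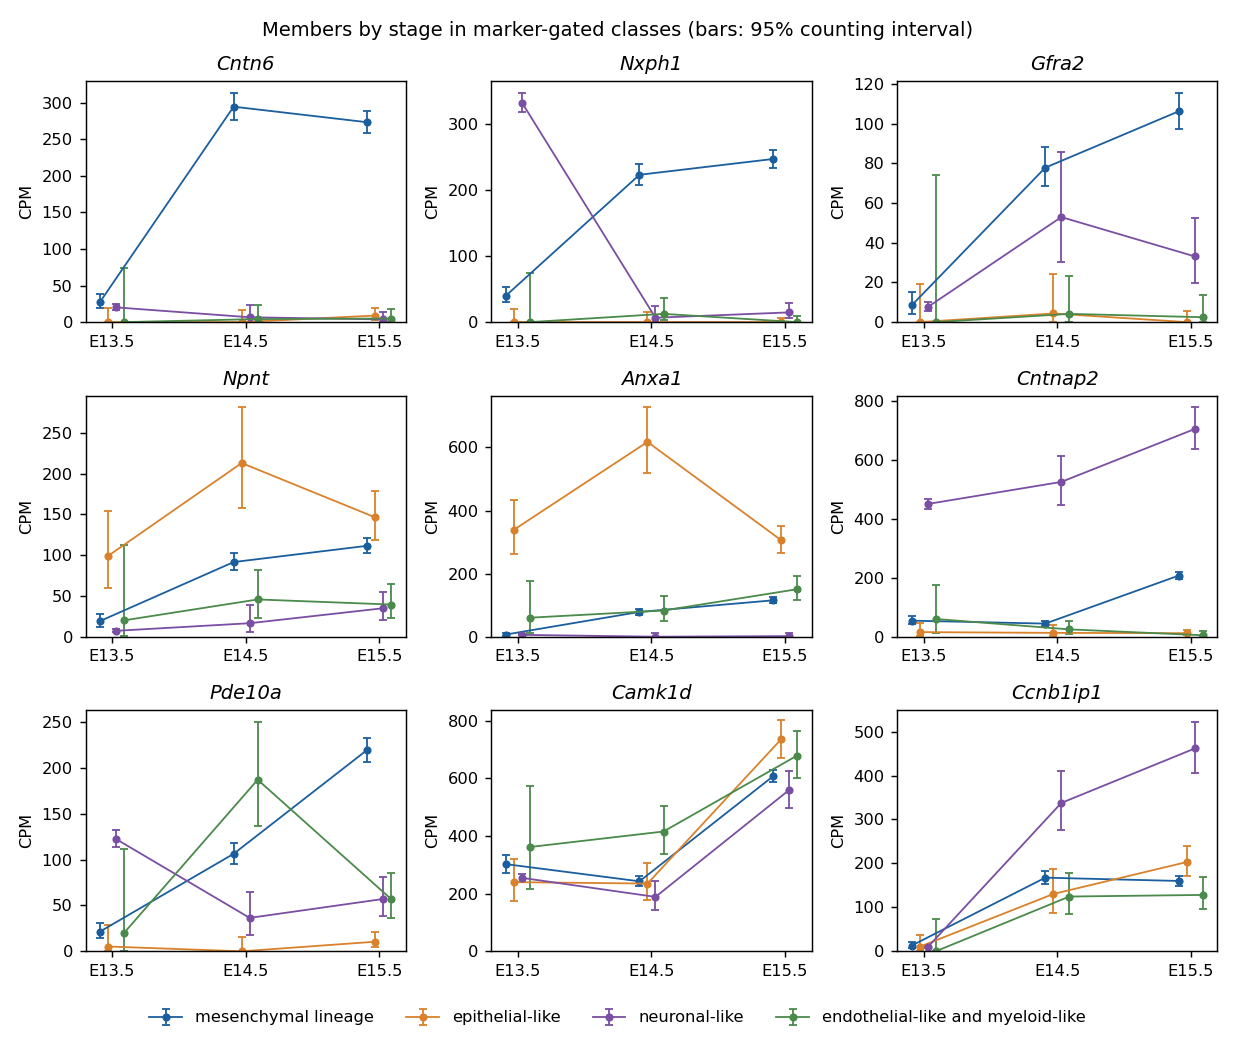
Level of each gene in CPM (vertical axis, starting at 0 and scaled per panel) at the 3 stages in the mesenchymal lineage and 3 other marker-gated classes; bars are 95% counting intervals and each point is 1 library. Nxph1 is highest in neuronal-like cells at E13.5 and in the lineage at E14.5, with neuronal-like cells that lie in different clusters at these stages, whereas Camk1d and Ccnb1ip1 end above their E13.5 level in all 4 groups.

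Among gated cells, Cntn6 was found mostly in the lineage from E14.5 on. Its level there was 27.7 CPM in the E13.5 library (interval 19.4–38.3, 36 UMIs), 295 CPM at E14.5 (276–314, 946 UMIs) and 273 CPM at E15.5 (259–288, 1363 UMIs). The E13.5 interval lay far below the others, and the ratio of E15.5 to E14.5 was 0.928 (0.853–1.01). The lineage held 32.1-fold more Cntn6 per UMI than all other gated cells at E14.5 (16.2–74.6), and 39.2-fold more one day later (22.4–76.1). With classes taken from clusters instead of markers these log2 ratios of 4.86 and 5.11 became 1.39 and 2.76. No UMI was found in epithelial-like or endothelial-like cells at E14.5, where 3 UMIs would be 13.04 and 25.8 CPM and the exact intervals reach 16.04 and 31.7 CPM. Within the lineage at E15.5, mesenchymal-like cells (290 CPM) were above osteogenic-like (166) and chondrogenic-like cells (165), whose intervals overlapped.

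Nxph1 was highest in neuronal-like cells at E13.5 and higher in the lineage than in neuronal-like cells later. In the lineage it was at 39.99 CPM (29.9–52.4, 52 UMIs), 223 CPM (207–240, 716 UMIs) and 247 CPM (233–261, 1231 UMIs). In neuronal-like cells it was at 332 CPM (318–348, 1930 UMIs), 6.62 CPM (0.802–23.9, 2 UMIs) and 14.7 CPM (6.35–29.0, 8 UMIs). The neuronal-like cells of E13.5 and of later stages lay mostly in different clusters. In clusters built without the 9 genes, clusters 3, 4, 7, 9 and 10, led by genes such as Gad1 and Neurod6, held 406, 374, 178, 129 and 492 of the 1775 neuronal-like cells at E13.5, whereas cluster 16, led by genes such as Atp8b4 and Gng13, held 35 of them, then 87 of 108 and 128 of 164. Within cluster 16 Nxph1 was low in every library, at 15.4 CPM (1.87–55.7), 4.65 CPM (0.118–25.9) and 5.50 CPM (0.666–19.9), from 2, 1 and 2 UMIs. For every gene, the E13.5 and later levels of neuronal-like cells thus come mostly from different cells. The lineage to other gated cells ratio was 0.135 (0.101–0.178), then 38.9 (16.6–120) and then 53.1 (26.9–123). With classes from clusters the later log2 ratios of 5.06 and 5.46 became 1.86 and 2.61, in the same direction. When all barcodes of each library were summed with no gate, its log2 ratio between E13.5 and E15.5 was -0.31 in place of 2.60. At E13.5 the Nxph1 level of the lineage was 12.03% of that of neuronal-like cells. The 12 neuronal markers stood at a median of 9.37% there (range 4.09%–21.5%), and whether neuronal RNA makes up the E13.5 lineage value was not tested. The same share at E13.5 was 12.1% for Cntnap2 and 17.6% for Pde10a, also inside that range, and was not tested for them either. At E14.5 the same marker median was 2.80% while Nxph1 in the lineage was 3369% of its neuronal-like level.

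Gfra2, the neurturin co-receptor, was concentrated in the lineage at the later stages and in a few glial-like cells. It was at 8.46 CPM (4.22–15.1, 11 UMIs), 77.9 CPM (68.5–88.1, 250 UMIs) and 106 CPM (97.4–116, 530 UMIs). The lineage stood 2.19-fold above other gated cells at E14.5 (1.50–3.29) and 5.72-fold above at E15.5 (4.00–8.45). Outside the lineage, neuronal-like cells were next, with 53.0 CPM at E14.5 and 33.1 CPM at E15.5, from 16 and 18 UMIs. Cluster 16, which held 87 of the 108 and 128 of the 164 neuronal-like cells, had 0 and 1 of these UMIs. So most neuronal-like cells had no Gfra2 UMI. Among glial-like cells, 6 of 12 at E14.5 and 11 of 22 at E15.5 had at least 1 UMI, at 242 CPM (125–423) and 180 CPM (95.8–308). These intervals lie above that of the lineage at E14.5, and overlap it at E15.5. Ret, through which Gfra2 signals, had 2, 1 and 3 UMIs in the whole lineage of the 3 stages. Ncam1, the other receptor partner, was at 378, 818 and 758 CPM.

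Npnt, the integrin ligand, was highest in osteogenic-like and epithelial-like cells. In the lineage it was at 19.2 CPM (12.4–28.4, 25 UMIs), 91.6 CPM (81.4–103, 294 UMIs) and 112 CPM (102–121, 556 UMIs). Osteogenic-like cells had 250 CPM at E14.5 (194–316) and 300 CPM at E15.5 (249–358), and epithelial-like cells had 213 CPM (158–282) and 146 CPM (119–178). Mesenchymal-like cells stood at 85.2 CPM and 94.7 CPM, below both without overlap of the intervals. So the lineage as a whole was only 1.21-fold (0.924–1.61) and 1.42-fold (1.18–1.73) above other gated cells. Myeloid-like cells were lowest, with 1 UMI among 84 cells at E15.5.

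Anxa1 was highest in epithelial-like cells at every stage. In the lineage it was at 6.92 CPM (3.16–13.1, 9 UMIs), 78.5 CPM (69.1–88.8, 252 UMIs) and 115 CPM (106–125, 575 UMIs). Epithelial-like cells had 339 CPM (262–432), 617 CPM (520–728) and 306 CPM (266–351). Myeloid-like cells had 121 CPM at E14.5 (67.6–199) and 220 CPM at E15.5 (163–291). The ratio of lineage to other gated cells was 0.417 (0.341–0.511) at E14.5, then 0.738 (0.637–0.856), below 1 both times. Neuronal-like cells had 0 UMIs at E14.5 and 1 at E15.5. In the E15.5 lineage 334 cells carried the 575 UMIs and none held more than 10, so the level does not rest on a few cells.

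Cntnap2 was highest in neuronal-like cells at every stage, and most of its UMIs in the E15.5 lineage lay in a handful of cells. Neuronal-like cells had 451 CPM (434–469), 526 CPM (448–615) and 706 CPM (637–780). The lineage had 54.6 CPM (42.6–68.9, 71 UMIs), 44.5 CPM (37.5–52.5, 143 UMIs) and 208 CPM (196–221, 1037 UMIs). Detection in lineage cells did not follow the level, being 7.91%, 4.56% and 6.40%. At E15.5 the 3 highest cells held 342, 152 and 129 UMIs, which is 60.1% of the total. The 8 cells with at least 20 UMIs held 783 of the 1037. Without them the E15.5 level was 51.4 CPM and the log2 ratio to E13.5 was -0.086 in place of 1.91, so the higher level of the lineage as a whole rested on 8 of 1734 cells. Leaving the 8 cells out was chosen after seeing the data. In the fixed mix of clusters described below, which holds none of the 8, the log2 ratio of E15.5 was 1.13 to E13.5 and 3.02 to E14.5. The same 3 clusters at their own mix gave -0.52 and 1.99.

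These 8 cells all fell in 1 cluster, number 23 of a clustering built without the 9 genes, whose leading genes include Klhl1, Slc26a7 and the fat cell regulator Pparg. They had a median of 4630 UMIs against 2058 in the rest of the lineage, and the part of this depth in the result was not tested. Col1a1, the main collagen of mesenchyme, stood at 3237 CPM in them and 3528 CPM in the rest. The mesenchymal markers Col3a1, Pdgfra and Prrx1 were lower in them, at 1133 against 1395, 185 against 230 and 462 against 982 CPM. Snap25, a synaptic vesicle fusion protein used here as a neuronal marker, stood at 1711 CPM and 14.2 CPM, while 6 other neuronal markers (Stmn2, Stmn3, Dcx, Elavl3, Elavl4 and Nefl) had 0 UMIs in them. The other 5 had few: Syt1 7 UMIs (162 CPM against 103 in the rest), Rtn1 2 (46.2 against 10.3), and Tubb3, Ina and Gap43 1 each. Slc26a7, an anion transporter, was at 1989 CPM against 48.4, and Fgf10, a growth factor of palate mesenchyme, at 1295 CPM against 69.8. The cells thus held Col1a1 RNA close to the level of the lineage together with Snap25 RNA. These genes were chosen after their values were seen. As a whole, cluster 23 had 30.2 CPM of Cntnap2 at E14.5 (6.24–88.4, 33 cells) and 2998 CPM at E15.5 (2799–3206, 89 cells), where the 8 cells held 783 of its 847 UMIs. Cluster 6, which holds none of the 8, had 76.8 CPM at E13.5 (55.6–103, 219 cells) and 384 CPM at E15.5 (257–551, 42 cells).

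**Figure D2:**
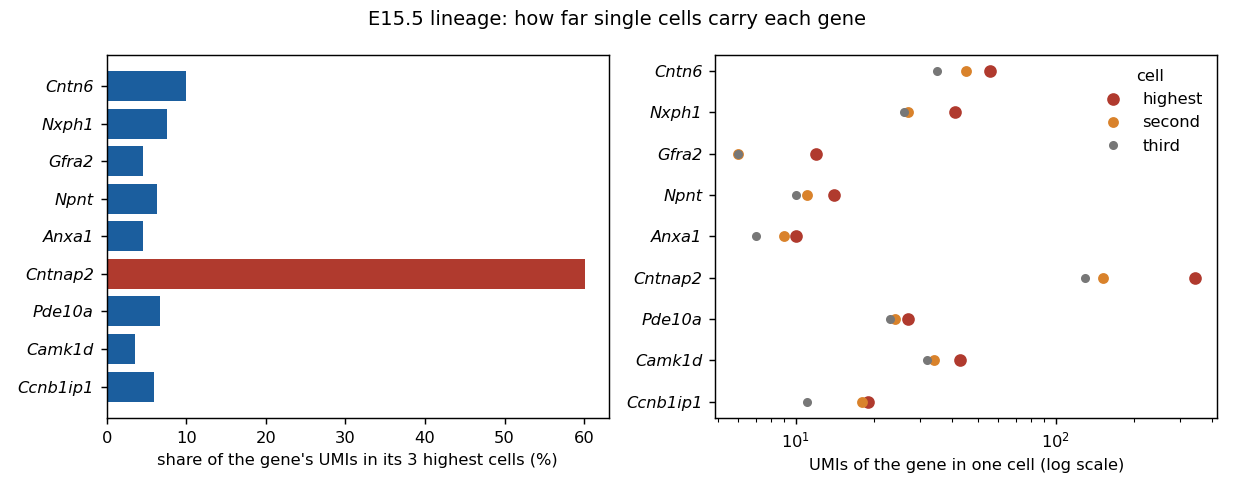
Left, share of each gene's lineage UMIs at E15.5 that lay in its 3 highest cells, in percent; right, UMIs of the gene in those 3 cells on a log axis. Cntnap2 had 60.1% in 3 cells, and the other 8 genes had at most 9.98%.

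Pde10a was higher at each later stage in the lineage. It was at 21.5 CPM (14.3–31.1, 28 UMIs), 106 CPM (95.2–118, 341 UMIs) and 219 CPM (207–233, 1094 UMIs). Neuronal-like cells stood at 122, 36.4 and 57.0 CPM, but those of E13.5 lie in other clusters than the later ones, as given for Nxph1. In cluster 16, which holds most of the later ones, Pde10a was at 15.4 CPM (1.87–55.7), 18.6 CPM (5.06–47.6) and 35.8 CPM (19.0–61.2). At E14.5 the leading class was endothelial-like, at 335 CPM (238–458), from 6 of 42 cells, and at E15.5 it was mesenchymal-like, at 243 CPM (229–258) against 120 CPM in endothelial-like cells (75.5–182). The lineage stood 1.47-fold above other gated cells at E14.5 (1.12–1.96) and 5.17-fold above at E15.5 (4.08–6.65). Among cells with at least 1000 genes the E14.5 log2 ratio was 1.49 in place of 0.55, with a stricter gate it was 1.81, and with classes from clusters it was 0.042, so that it ran from no difference to past the 2-fold mark. The second step, a log2 ratio of 1.04 between E14.5 and E15.5, lay close to the 2-fold mark and was 0.97 among cells without a Y-linked UMI. It was 0.20 in 3 lineage clusters with their mix held fixed. Outside those 3, Pde10a was higher at E15.5 in 4 clusters, from 128 to 383 CPM in cluster 8, from 197 to 391 CPM in cluster 12, from 85.8 to 238 CPM in cluster 19 and from 42.8 to 136 CPM in cluster 24. In cluster 23, also outside them, it was not, at 313 CPM (212–444, 33 cells) and 301 CPM (240–372, 89 cells).

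Camk1d was detected widely from the start. In the lineage it was at 302 CPM (273–334, 393 UMIs), 243 CPM (226–260, 779 UMIs) and 607 CPM (585–629, 3025 UMIs). The ratio of E15.5 to E14.5 was 2.501 in the lineage (2.31–2.71), 3.13 in epithelial-like cells (2.36–4.23), 2.96 in neuronal-like cells (2.23–4.01) and 1.63 in endothelial-like and myeloid-like cells (1.29–2.07). None of these 4 intervals included 1, so the 4 groups shared the higher level. The lineage was level with other gated cells, at 0.920 of them at E14.5 (0.793–1.07) and 0.932 at E15.5 (0.870–1.00). Other transcripts moved with it over the same libraries in the lineage: Gm42418, a gene model that collects ribosomal RNA reads, was at 8358 CPM at E14.5 and 14253 CPM at E15.5, and 12 early response genes, which cell dissociation can switch on, summed to 1501 and 2360 CPM. Their part in the Camk1d value was not tested, and the library and the stage cannot be told apart.

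Ccnb1ip1 was low at E13.5 and higher at E14.5 both inside and outside the lineage. In the lineage it was at 13.1 CPM (7.62–20.9, 17 UMIs), 168 CPM (154–182, 538 UMIs) and 160 CPM (149–172, 798 UMIs). Neuronal-like cells stood at 9.47, 338 and 462 CPM and were the highest class in the later libraries, followed at E15.5 by chondrogenic-like cells at 293 CPM (231–365). Epithelial-like cells went from 10.4 to 130 and 203 CPM, and endothelial-like and myeloid-like cells from 0 UMIs to 125 and 128 CPM. Of 8182 genes that could be compared in the lineage, epithelial-like, neuronal-like, and endothelial-like with myeloid-like cells together, 38 (0.464%) were 2-fold or more above E13.5 at E14.5 in each. Ccnb1ip1 and Npnt were among them, as were Col1a1 and the haemoglobin gene Hbb-bs, which are products of mesenchyme and of red cells, and the Y-linked Uty, Ddx3y and Eif2s3y. For Npnt the intervals included 1 in neuronal-like cells (2.29-fold, 0.706–5.77) and in endothelial-like with myeloid-like cells (2.27-fold, 0.331–97.9). Between E14.5 and E15.5 no member met this mark and 2 genes did (0.0229% of 8741). From E13.5 to E15.5, 65 of 8266 did (0.786%), Ccnb1ip1 among them. Hbb-bs in the lineage was at 807, 3114 and 3906 CPM, while another haemoglobin gene, Hba-a1, was at 5066, 2875 and 2824 CPM, and their part in the Ccnb1ip1 value was not tested. The level of Ccnb1ip1 in neuronal-like cells exceeded that in the lineage by more than counting error at E14.5 and E15.5.

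Of the 9 genes, 0, 3 and 4 were at least 2-fold higher in the lineage than in all other gated cells over the 3 stages, beside 13.3%, 12.2% and 11.4% of all genes. The lineage levels in these ratios are those the genes were chosen on, so nothing is read from the order of the counts. Cntn6, Nxph1 and Gfra2 made up the 3, and Pde10a joined at E15.5. Gfra2 was close to the mark at E14.5, and with classes from clusters its log2 ratio was 0.85, which leaves 2. Outside the lineage, Npnt and Anxa1 were found in epithelial-like cells, Cntnap2 and Ccnb1ip1 were higher in neuronal-like cells, and Camk1d was at like levels inside and outside the lineage. The E13.5 comparison is led by neuronal-like cells, which are the bulk of the other gated cells there.

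**Figure D3:**
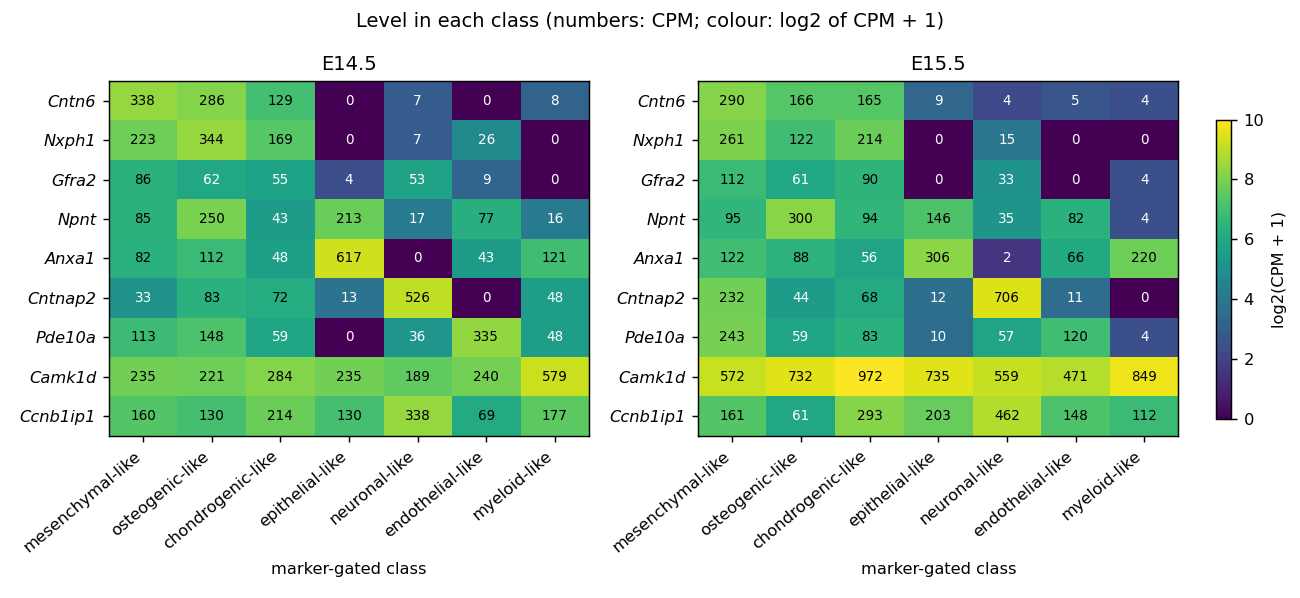
Level of each gene in 7 marker-gated classes at E14.5 and E15.5; the numbers are CPM and the colour is log2(CPM + 1), with 1 library per stage. The 3 lineage classes on the left carry Cntn6 and Nxph1, epithelial-like cells lead for Anxa1, and neuronal-like cells lead for Cntnap2 and Ccnb1ip1.

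The genes did not share 1 place within the lineage. In the clustering built without them, cluster 19 had the most Cntn6 at E15.5, 610 CPM (569–653, 461 cells), and the most Npnt, 238 CPM (213–266). Its leading genes include the bone matrix genes Ibsp, Spp1 and Omd but also Cga and C1qtnf3, and Ibsp leads cluster 5 as well. Cluster 24, led by Kera, Cdh20 and the palate transcription factor gene Meox2, had the most Nxph1, 473 CPM (402–553, 114 cells), with 439 CPM in cluster 8 (398–483, 362 cells). Gfra2 was highest in cluster 8, at 242 CPM (212–275), and nearly absent from cluster 24, at 9.04 CPM (1.86–26.4). Nxph1 and Gfra2 thus shared cluster 8 but not cluster 24. Anxa1 was highest in cluster 5 at 229 CPM (198–263, 363 cells), and Pde10a in clusters 12 and 8, at 391 CPM (324–468) and 383 CPM (345–424). Camk1d ranged from 230 CPM in cluster 5 to 825 CPM in cluster 23. Ccnb1ip1 was the most even, between 78.8 CPM in cluster 12 and 189 CPM in cluster 19. Chondrogenic-led cluster 21, with Matn1, Acan and Col2a1, was low in Cntn6 at E14.5, at 31.0 CPM (10.1–72.4, 64 cells).

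**Figure D4:**
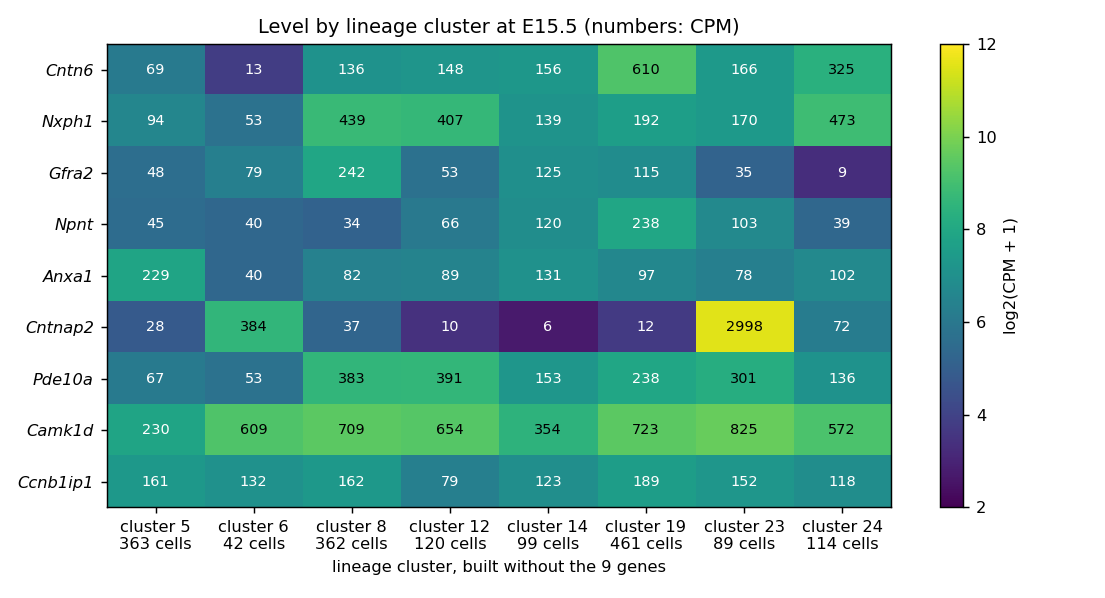
Level of each gene in the lineage cells of 8 clusters at E15.5; numbers are CPM, colour is log2(CPM + 1), and the cell number stands under each cluster. Cntnap2 is at 2998 CPM in cluster 23 and between 5.58 and 384 CPM elsewhere, and Cntn6 and Npnt are highest in cluster 19.

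The mix of clusters also differed between stages. Clusters 5, 6 and 14 each had at least 30 lineage cells in every library, and they held 69.4% of the E13.5 lineage but 32.7% and 29.1% of the later ones. With these 3 clusters alone and their mix held fixed, 7 genes were 2-fold or more above their E13.5 level at E15.5, beside 15.2% of 11099 genes. With the 3 clusters at their own mix in each library the count was also 7, beside 8.11% of 11188. Both were chosen after seeing the data, and nothing is read from the counts, since the contrast is that of the choice. In what follows the first value is for the fixed mix. Npnt and Camk1d stood below the mark at log2 ratios of 0.96 and 0.70, in place of 2.48 and 1.00. At their own mix the genes below the mark were others: Camk1d at 0.095 and Cntnap2 at -0.52, with Npnt above it at 2.13. So the genes that passed were not the same. Cntn6, at 22.8, 144 and 71.2 CPM under the fixed mix, had a log2 ratio of -1.004 between E14.5 and E15.5, in place of -0.11. At their own mix the 3 clusters gave Cntn6 -0.94, Nxph1 1.21 and Pde10a 0.25 for this step, so these values came with the choice of clusters more than with the weighting. In cluster 19, outside the 3 and home to 461 of the 1734 cells of the E15.5 lineage, Cntn6 went the other way, from 455 CPM (407–506) to 610 CPM (569–653). It was higher at E15.5 in cluster 23 too (80.6 and 166 CPM), with overlapping intervals. Cntn6 was lower at E15.5 in cluster 8 (236 and 136 CPM), cluster 12 (521 and 148 CPM) and, with overlapping intervals, cluster 24 (393 and 325 CPM). Anxa1 and Ccnb1ip1 kept log2 ratios of 3.40 and 3.06 from E13.5 to E15.5, in place of 3.88 and 3.52. Between E13.5 and E14.5 Npnt had 0.74 in place of 2.19, but 1.87 in the 3 clusters at their own mix. Between E14.5 and E15.5 Nxph1 had 1.20 in place of 0.15 and Pde10a 0.20 in place of 1.04, so their step moved across the 2-fold mark in opposite directions. Outside the 3 clusters Nxph1 differed between clusters too, being lower at E15.5 in cluster 19 (278 and 192 CPM) and cluster 24 (774 and 473 CPM) and higher in cluster 8 (239 and 439 CPM) and cluster 12 (211 and 407 CPM). In cluster 6, home to 219 of the 468 cells in the E13.5 lineage, Cntn6 stayed low at 12.5 CPM (5.02–25.7), 31.6 CPM (6.51–92.3) and 13.2 CPM (0.335–73.7).

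Shares of cells with at least 1 UMI were compared after each lineage cell was thinned to 1500 UMIs, leaving out 146, 450 and 626 shallower cells and keeping 322, 734 and 1108. Endothelial-like and myeloid-like cells, thinned alike (60 cells of the E14.5 library, 83 of the E15.5 library), show what a class without the gene gives. Cntn6 was detected in 1.55%, 19.6% (16.8%–22.7%) and 15.6% (13.52%–17.9%) of lineage cells, against 1 of 60 and 0 of 83 in the other classes. Without thinning its shares were 4.06%, 21.4% and 18.2%. Nxph1 went from 4.04% to 99 of 734 cells and then 16.2%, and Gfra2 from 0.932% to 10.5% and 11.3%, with the same 1 of 60 and 0 of 83. For these 3 the lineage share was above that of endothelial-like and myeloid-like cells at both later stages, with intervals that overlapped only for Gfra2 at E14.5 (8.37%–12.9% against 0.0422%–8.94%). Npnt was in 2.17%, 10.4% and 11.6%, against 6.67% and 6.02% in the other classes, whose intervals overlapped. Anxa1 was in 1.24%, 8.72% and 15.1%, against 8.33% and 16.9%. Pde10a was in 3.11%, 8.72% and 15.9%, against 10.0% and 6.02%. The endothelial-like and myeloid-like cells carry Npnt, Anxa1, Pde10a, Camk1d and Ccnb1ip1 themselves, so they are no background for those. Camk1d was in 32.0%, 25.2% and 48.9%, against 18 of 60 cells and 47.0%, and Ccnb1ip1 in 2.80%, 16.3% and 15.7%, against 13.3% and 13.3%. Cntnap2 was in 5.28% (3.11%–8.32%), 2.32% (1.35%–3.68%) and 4.51% (3.37%–5.91%), the only gene of the 9 with a smaller share in the last library than in the first, by less than the intervals. Before thinning, the median UMIs per cell were 2226, 1885 and 2059 for lineage cells, and 1841, 2126 and 1884 for the endothelial-like and myeloid-like cells.

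Cells held several of the genes together about as often as their separate shares predict. Over the 28 pairs with at least 5 cells expected at E14.5, the number of cells with both genes divided by the number expected had a median of 1.07. All pairs of genes detected in the same range of cells had a median of 0.992 and a middle 50% from 0.791 to 1.20. At E15.5 the 36 pairs had a median of 1.04, beside 0.996 and 0.826 to 1.17. Ratios above 1 were found for 17 of 28 and 22 of 36 pairs, beside 48.8% and 49.4% of all pairs. At E15.5, 203 of the 1108 thinned cells had none of the 9 genes (180 expected from the shares), 373 had 1 (396), 319 had 2 (333), 154 had 3 (150), 53 had 4 (40.9), 5 had 5 (7.08) and 1 had 6 (0.781). Cells with none and with 4 were more than expected, and those with 1, 2 and 5 fewer. Without thinning the medians were 1.45 and 1.23, and the cause was not tested.

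The range that holds 95% of all gene pairs was 0.390 to 1.69 at E14.5 and 0.465 to 1.62 one day later. Only Cntn6 with Pde10a at E14.5, and Npnt with Cntnap2 at E15.5, lay outside it. Cntn6 and Pde10a were found together in 23 cells where 12.6 were expected at E14.5 (ratio 1.83) and in 43 where 27.5 were expected at E15.5 (1.56), the highest ratio at each stage, with Npnt and Pde10a level at E15.5. Pde10a was detected in 24.9% of cells with Cntn6 at E15.5 (18.6%–32.0%) and in 14.2% of cells without it (12.05%–16.6%). The E14.5 shares were 16.0% (10.4%–23.0%) and 6.95% (5.03%–9.31%), so the intervals did not overlap at either stage. Npnt and Pde10a had ratios of 1.36 (9 cells) and 1.56 (32 cells). Cntn6 and Npnt, which share cluster 19, had 1.21 and 1.44, and Cntn6 and Nxph1 had 1.44 and 1.17.

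For Anxa1 the ratios with Cntn6, Nxph1, Npnt, Pde10a and Camk1d were below 1 at both stages, from 0.538 to 0.811 at E14.5 (3 to 11 cells with both) and from 0.617 to 0.882 at E15.5, all within the range of all pairs. Camk1d was detected in 38.3% of cells with Anxa1 at E15.5 (30.9%–46.2%) and in 50.8% of cells without it (47.6%–54.0%). With Gfra2 it turned from 0.596 (4 cells) to 1.33 (25 cells), and with Ccnb1ip1 it was above 1 at both stages, 1.05 and 1.18. Npnt and Cntnap2 had the lowest ratio at E15.5, 0.344, from 2 cells where 5.82 were expected.

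**Figure D5:**
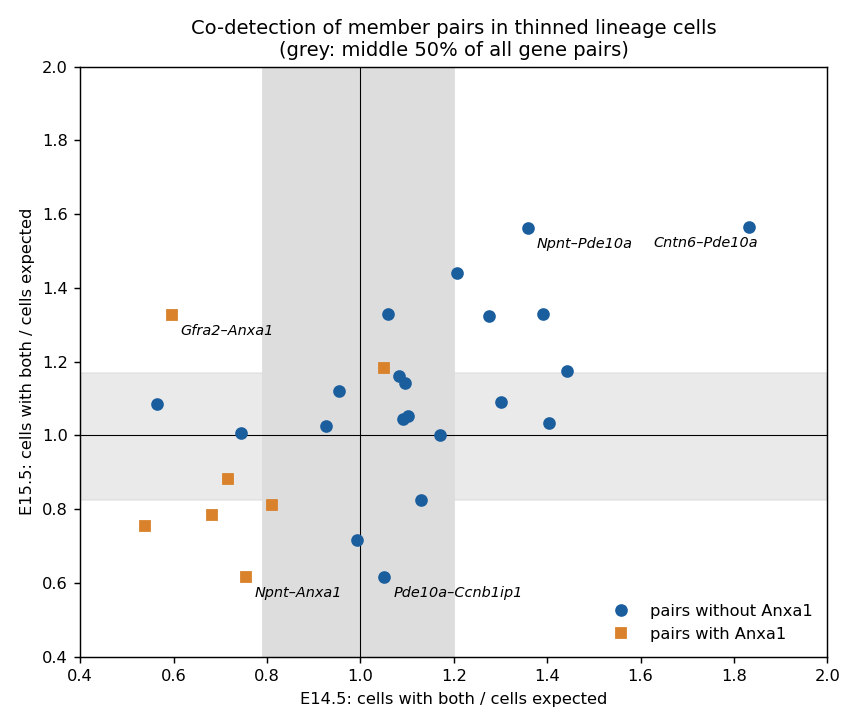
Cells holding both genes of a pair divided by the number expected from their shares, at E14.5 (horizontal) and E15.5 (vertical), in lineage cells thinned to 1500 UMIs; each point is a pair and grey marks the middle 50% of all gene pairs. Cntn6 with Pde10a is at 1.83 and 1.56, and most pairs with Anxa1 lie below 1 on both axes.

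Cells with a given gene also differed in the other genes they carried, again at equal depth. Cells with Npnt had 2.28-fold more osteogenic marker RNA at E14.5 (2.02–2.57, 12 markers summed) and 2.75-fold more at E15.5 (2.501–3.02) than lineage cells without it. For Runx2, the transcription factor that starts bone formation and also 1 of those markers, the folds were 2.82 and 2.72. Ibsp, a bone sialoprotein, was 5.06-fold higher in Npnt cells at E15.5 (3.79–6.72), but 1.28-fold at E14.5 (0.937–1.72). Cells with Cntn6 had more Msx1, a transcription factor of the anterior palate, by 3.05-fold at E14.5 (2.21–4.20) and 1.89-fold at E15.5 (1.45–2.45), and had 0.0828 and 0.0259 of the Ibsp level. Runx2 in Cntn6 cells was 1.75-fold higher at E15.5 (1.56–1.95) and 0.902 of that in other cells at E14.5 (0.765–1.06). So both genes were found beside Runx2 at E15.5, but Npnt cells carried Ibsp and Cntn6 cells almost none.

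Cells with Anxa1 had less osteogenic marker RNA at E15.5, 0.575 of that in other cells (0.496–0.663) after 0.914 at E14.5 (0.759–1.09), and more Dcn, a small matrix proteoglycan, by 1.63-fold (1.30–2.03). The 13 fibroblast-like matrix genes together were 1.30-fold higher in them (1.18–1.42). Cells with Pde10a had more Alx1, a craniofacial transcription factor gene, by 2.82-fold (1.44–5.16) and 2.09-fold (1.40–3.05), and at E14.5 0.335 of the osteogenic RNA (0.248–0.443). Cells with Cntnap2 had 5.17-fold more Fgf10 at E15.5 (3.04–8.40), of which the 8 cells described above carry a part, after 0.659 at E14.5 (0.0164–3.81, 1 UMI), and at E15.5 3.25-fold more neuronal marker RNA (2.37–4.38), after 3.61-fold at E14.5 (2.32–5.39). Before thinning the 8 cells held 74 of the Snap25 UMIs of the E15.5 lineage, against 70 in its other cells, and none of the 8 is in the E14.5 library. The UMIs of a gene such as Ibsp can lie in few cells, and the intervals cover counting error only.

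Relatives and partners of the 9 genes were compared in the lineage between E13.5 and E15.5. Over all 11482 genes compared in this contrast 9.67% were at least 2-fold higher and 5.07% lower. Of 16 other genes of the contactin list, 11 reached a mean of 5 CPM, of which 3 were higher and 2 lower, with a median log2 ratio of 0.25. Cntn4, a close relative of Cntn6, was at 126, 498 and 367 CPM. Cntn5 was at 215, 209 and 252 CPM, and the contactin-binding phosphatases Ptprg and Ptprz1 had log2 ratios of -0.27 and 0.82. Ptprz1 is also a neural progenitor marker of the gate.

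For Nxph1, of 10 others 7 were compared, 1 was higher and 2 lower. The higher was Nlgn1, the neuroligin that binds neurexins, at 297, 676 and 824 CPM. Nlgn2 and Dag1 had log2 ratios of 0.24 and 0.47. For Gfra2, of 12 others 4 were compared and 1 was higher, Ncam1, with a log2 ratio of 1.00. The sister co-receptor Gfra1 was at 36.9, 31.5 and 29.3 CPM, Sdc3, another binding partner of these ligands, at 29.2, 26.2 and 21.3 CPM, and the ligand Nrtn had 3, 15 and 24 UMIs. Ret was thus at the limit of what these counts can show, and Nrtn was low.

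For Npnt, of 10 others 9 were compared, 4 were higher and 0 lower. Itga8, whose product joins with that of Itgb1 to form the nephronectin receptor, was at 56.9, 196 and 270 CPM, a log2 ratio of 2.23. Itgb1 was at 426, 469 and 491 CPM, and Grip1 and Frem1, which act at the same basement membrane complex, had log2 ratios of -0.10 and 0.60. Ligand and receptor alpha chain were therefore both higher in the lineage, while the widely used beta chain was nearly level. For Anxa1, of 12 others 8 were compared and 3 were higher. Anxa2 was at 74.6, 134 and 174 CPM, while Anxa5, S100a10 and S100a11 had log2 ratios between 0.27 and 0.53. The receptors Fpr1 and Fpr2 had 0 and 1 UMIs in the lineage over the 3 stages.

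Among 18 other phosphodiesterases 14 were compared, 2 were higher and 0 lower, and the abundant Pde4d, Pde7b, Pde3a and Pde4b had log2 ratios between 0.22 and 0.85. Of 13 other kinase and calmodulin genes 9 were compared, 0 were higher and 1 lower. The calmodulins Calm2 and Calm3 and the kinase Camk2d had log2 ratios between -0.34 and 0.91. Of 13 crossover and cyclin B partners of Ccnb1ip1, 6 were compared, 0 were higher and 1 lower. Cdk1 and Ccnb2 had log2 ratios of -0.14 and -0.93, and of the meiotic genes Rnf212 and Sycp1 had 0 and 1 UMIs in all, Msh5 0, 12 and 23, Sycp3 4, 16 and 18, and Hfm1, the lower one, 13, 20 and 18. None of the 6 partners compared was thus higher by 2-fold, as Ccnb1ip1 was.

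Of 16 palate regulators 15 were compared, 7 were higher and 0 lower, with a median log2 ratio of 0.79. The signalling ligand gene Eda went from 99.97 to 388 CPM and Shox2 from 56.1 to 216 CPM, while Msx1 had a log2 ratio of 0.72. Of the 13 fibroblast-like matrix genes 11 were compared, 8 were higher and 1 lower, with a median of 1.52. Col12a1, Ogn, Dcn and Lum had log2 ratios of 1.43, 2.20, 1.81 and 1.54. Dcn is a marker of the gate as well. Against E15.5, the E13.5 lineage was therefore lower by 2-fold or more in 8 of these 11 matrix genes, as in the 9 genes. For Cntnap2 the difference over the whole lineage rested on 8 cells. The part of the matrix genes in the values of the 9 genes was not tested.

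Over 19 sums of cells (each class of at least 30 cells at each stage), each gene was compared with 8379 genes that reached 50 CPM in some sum, as a description only, since sums of 1 library share its depth and free RNA. The genes most like Cntn6 were Kcnt2 and Alpl (Pearson r of log2(CPM + 1) 0.91 for both), and those most like Nxph1 were Epha3 (0.92) and Nlgn1 (0.91). Gfra2 was most like Dnm1 (0.90) and Lingo2 (0.87), Npnt like Ltbp4 and Mipol1 (0.84 for both), and Anxa1 like Lrrk1 (0.90) and Met (0.89). Cntnap2 was most like Xkr6 (0.93) and Kcnn2 (0.92), Pde10a like Zeb1 (0.85) and Zfp423 (0.84), and Ccnb1ip1 like Atg10 (0.89) and Hbb-bs (0.85). Among the 9 genes the closest were Nxph1 with Gfra2 (0.81) and Cntn6 with Nxph1 (0.78), while Anxa1 and Cntnap2 were the most opposed (-0.57). Likeness among the 9 genes is partly set by their choice, since the sums include the lineage classes they were chosen on.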

How the data were processed

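For every cell barcode the deposited files give raw counts (UMIs) of each gene. Per the file headers and the submitters' processing notes they were made with Cell Ranger 6.1.2 on mm10, and the annotation is not given in the sources used here. The members and all gene lists were chosen with earlier results of these data known.

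Barcodes with under 500 genes (544, 304 and 473) or over 20% mitochondrial UMIs (0) were left out. Scrublet, in scanpy 1.11.5, called only 0, 4 and 1 doublets by its own threshold and was not relied on; instead the top-scoring cells were dropped at 0.8% per 1000 barcodes (125, 30 and 66). A cell joined the class with most of 12 markers detected if that was at least 3 and at least 2 above every other class, over 14 classes, with the 3 lineage classes competing as 1. UMIs were summed per class and stage and scaled to CPM, with exact Poisson intervals for levels, exact conditional binomial intervals for ratios and Clopper-Pearson intervals for shares. A log2 ratio had 1 CPM added, and "2-fold" means a log2 ratio of at least 1 among genes with a mean of at least 5 CPM. Thinning drew UMIs without replacement (seed 1). Leiden clusters (resolution 1, 30 components, 15 neighbours) were built without the 9 genes. The code was tested on simulated data.

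Named genes were all members; of each list, up to 4 genes with the highest E15.5 lineage CPM past 20; for each member the 2 most alike; and marker genes. Other genes named in the text, such as Ret, Nrtn, Msh5, Sycp3, Hba-a1, Rpph1, Dnajc6, Ier2, Gm42418 and those of the 8 Cntnap2 cells, were chosen after their values were seen. Some genes that this rule would name are not reported here.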

Additional observations from a re-analysis of the deposited data

Results flagged for a closer look

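The values below are those where a gene was higher at a later stage in the lineage and lower in another class, each by at least 2-fold and with counting intervals that exclude 1. The direction in the lineage was fixed by the choice of genes, and no share over all genes was computed. With 1 library per stage the difference was not tested in any of them. In neuronal-like cells the log2 ratio of Nxph1 was -5.45 from E13.5 to E14.5 and -4.41 from E13.5 to E15.5, where the lineage had 2.45 and 2.60. That of Cntn6 from E13.5 to E15.5 was -2.18, against 3.26, and rests on 117 and 2 UMIs. Pde10a in neuronal-like cells had -1.72 from E13.5 to E14.5 and -1.09 from E13.5 to E15.5, against 2.25 and 3.29. The neuronal-like cells numbered 1775, 108 and 164 over the stages and lay in different clusters: cluster 16 held 1.97% of them at E13.5 but 80.6% and 78.0% later. These values thus compare mostly different neuronal-like cells. Within cluster 16 Nxph1, Cntn6 and Pde10a had at most 2 UMIs each at E13.5, too few for a comparison. In endothelial-like and myeloid-like cells Pde10a had -1.70 from E14.5 to E15.5 (45 and 23 UMIs), against 1.04. Cntnap2 had -3.37 from E13.5 to E15.5 there, but from 3 and 2 UMIs in 22 and 138 cells, against 1.91 in the lineage.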

How the results depend on the processing

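No paired analysis was possible because each stage has 1 library and no replicate. With all barcodes of a library summed instead of the gated lineage, the log2 ratio of Nxph1 turned to -0.48 from E13.5 to E14.5 and to -0.31 from E13.5 to E15.5, and that of Cntnap2 from E13.5 to E15.5 to -0.52. In that sum 6 genes in place of 9 passed 2-fold between these stages. Without the 8 cells highest in Cntnap2, an alternative chosen after seeing the data, that ratio was -0.086, the count was 7 (Camk1d stood at 0.999), and the lineage to other cells ratio of Cntnap2 at E15.5 fell to -2.13 from -0.14. Without thinning the median co-detection ratio was 1.45 at E14.5 and 1.23 at E15.5, against 1.07 and 1.04. With 5 CPM added before the log, 8 genes passed 2-fold from E13.5 to E15.5, Camk1d being lost. In the 3 lineage clusters present in every library, with their own mix, the Cntnap2 ratio from E13.5 to E15.5 was -0.52. This setting, leaving out cells with a Y-linked UMI and holding the cluster mix fixed were also chosen after seeing the data. The counts of genes higher in the lineage than in other cells ranged from 2 to 4 at E14.5 and were 4 at E15.5 under all alternatives run for them. The E13.5 lineage is the least precise because it has 468 cells, so that 1 UMI is 0.769 CPM.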
